A study of Mus musculus with 2 samples.

Results

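The genes described here encode eosinophil granule proteins and lysozymes, with a pair of secreted proteins often measured beside them in type 2 immunity. They were 9 genes fixed by name: Epx, Prg2, Prg3, Rnase2a, Srgn, Lyz1, Lyz2, Chil3 and Retnla. All probe sets whose only annotated gene was one of these were taken, which gave 11 probe sets of 22690 on each array, for 9 of 12393 genes. RNA of these genes was compared between eosinophils and dendritic cells of the lamina propria, the connective tissue under the small intestinal epithelium. Both populations came from C57BL/6 mice aged 8 weeks, were labelled as unstimulated and were isolated by flow cytometric sorting. Eosinophils were taken as CD11b+ cells with intermediate CD11c and with SiglecF but without MHC class II, and dendritic cells as cells with CD11c and MHC class II. Each population was measured on 1 array, and how many mice were pooled was not stated in the sources used here. No replicate error exists, so no test was made, and every value describes these 2 arrays.

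Mature eosinophils store a set of preformed cationic proteins in their specific granules and release them onto parasites and tissue. The toxic proteins are eosinophil peroxidase, the major basic proteins and the eosinophil ribonucleases, and the proteoglycan serglycin packs such basic cargo through its negatively charged chains. Most granule protein is made while the cell matures in the bone marrow, so a mature eosinophil can carry the protein with little of its mRNA. Lysozymes cut bacterial cell wall peptidoglycan; in mice Lyz2 is known as the form of macrophages and other myeloid cells and Lyz1 as that of the Paneth cells of intestinal crypts.

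The arrays carried the identities on their labels. Of 12 eosinophil markers on the array, 10 were measured and 7 were at least 4-fold stronger in eosinophils, whereas 0 were so in dendritic cells. The markers include Epx and Prg2. Without these, 9 of 10 were measured, 6 were at least 4-fold stronger in eosinophils and 0 in dendritic cells. Siglecf, the lectin of the gate, gave 6977 units in eosinophils against 112.3 units in dendritic cells. Of 17 dendritic cell markers, all measured, 12 were at least 4-fold stronger in dendritic cells and 0 were so in eosinophils. H2-Ab1, a class II chain of the gate, gave 107.5 units in eosinophils against 31759 units in dendritic cells. Ltc4s, the leukotriene C4 synthase counted among the eosinophil markers, went against its list at 5.99 units in eosinophils against 397.2 units in dendritic cells. These genes overlap with the sort and check the labels only.

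A signal is a linear MAS5 intensity, and it does not compare levels between genes because each probe set binds with its own strength. The floor was 134.7 units, the median over the pooled signals. A lower signal was raised to it before a ratio was taken, so such a ratio is a lower bound, and a gene under the floor on both arrays has no ratio. Genes that these cells should lack (lens, germ cell, hair and similar genes) reached a 95th percentile of 180.6 units, so a signal between 134.7 and 180.6 units may also be background. The log2 differences (eosinophils minus dendritic cells) of probe sets of 1 gene had a pooled SD of 0.73 (1.65-fold, 1767 genes). It is the only spread in these data. It was taken over probe sets above the floor on both arrays, so it does not cover lower bounds.

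Regulatory sequence helps to show how close the lysozyme pair is and how a detected granule gene compares with an undetected one. RefSeq's promoter table for GRCm38.p6 matched 8 of the 9 genes. The 250 bases before the start site are printed on the gene's own strand for Lyz1 (chr10:117292869-117293118, minus strand) and Lyz2 (chr10:117282273-117282522, minus strand), with the bases that differ between them in an alignment in capitals, since this pair gave the largest measured differences among the 9 genes:
Lyz1: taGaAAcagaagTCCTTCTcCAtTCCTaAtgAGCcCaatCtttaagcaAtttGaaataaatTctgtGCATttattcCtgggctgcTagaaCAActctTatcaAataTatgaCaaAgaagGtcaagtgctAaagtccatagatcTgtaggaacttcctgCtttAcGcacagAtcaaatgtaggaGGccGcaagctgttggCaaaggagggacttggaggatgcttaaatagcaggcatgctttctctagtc
Lyz2: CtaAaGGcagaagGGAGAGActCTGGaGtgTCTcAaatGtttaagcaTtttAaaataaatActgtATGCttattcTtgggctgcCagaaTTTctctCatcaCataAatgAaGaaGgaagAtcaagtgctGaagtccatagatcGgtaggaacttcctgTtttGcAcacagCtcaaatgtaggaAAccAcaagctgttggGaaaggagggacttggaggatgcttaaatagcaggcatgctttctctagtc

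Across the aligned 252 positions, Lyz1 and Lyz2 shared 200 bases, an identity of 79.4%. The identity was 92.0% over the 100 bases next to the start site and 63.7% over the 100 farthest from it. In the 50 bases after the start site, which belong to the transcripts themselves, 49 were the same. The genes are also next to each other among protein-coding genes of chromosome 10 in that assembly, as Prg2 and Prg3 are on chromosome 2.

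Epx (chr11:87875537-87875786, minus strand) and Prg3 (chr2:84987965-84988214, plus strand) are printed as the detected and an undetected gene of the toxic granule proteins. Capitals mark the TATA box (TATAAA, gene strand) and the core site of GATA factors (AGATAA or TGATAA, both strands):
Epx: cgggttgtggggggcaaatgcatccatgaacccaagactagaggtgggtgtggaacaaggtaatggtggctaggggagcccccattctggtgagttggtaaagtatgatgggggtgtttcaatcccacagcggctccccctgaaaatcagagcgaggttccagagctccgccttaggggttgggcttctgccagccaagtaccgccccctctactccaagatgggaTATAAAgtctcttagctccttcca
Prg3: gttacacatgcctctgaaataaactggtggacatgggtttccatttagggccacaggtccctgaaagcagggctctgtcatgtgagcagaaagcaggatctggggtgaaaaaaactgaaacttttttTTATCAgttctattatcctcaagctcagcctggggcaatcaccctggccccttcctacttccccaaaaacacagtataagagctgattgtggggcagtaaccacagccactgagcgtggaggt

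The Epx window held the TATA letters 24 bases before the start site and no GATA letters. The Prg3 window held 1 GATA match, 123 bases before the start site, and no TATAAA. Of all 32851 promoter windows of this length, 7.59% held the TATA letters and 16.6% the GATA letters. Among the other genes, Retnla held TATAAA 30 bases before its start site and Srgn 98 bases before 1 of its start sites, and Chil3 and Lyz1 held 2 and 1 GATA matches. A match describes the letters of a window and says nothing of binding there.

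Of the 9 genes, 5 passed the floor on 1 array or both, 3 of them in eosinophils and 3 in dendritic cells. Epx was at least 4-fold stronger in eosinophils, and Lyz1 and Lyz2 were at least 4-fold stronger in dendritic cells. Srgn and Retnla differed by less, and Prg2, Prg3, Rnase2a and Chil3 were under the floor on both arrays. Over all 7994 measured genes, 5.35% were at least 4-fold stronger in eosinophils and 5.35% in dendritic cells. Counted by probe sets, 1 of 7 measured was at least 4-fold stronger in eosinophils and 3 in dendritic cells, against 4.8% and 5.1% of all 13779 measured probe sets. The median log2 difference was 0.17 over the 5 measured genes and 0.16 over all measured genes. The 0.17 is the value of Retnla, a lower bound from a signal within the background range. The 5 values ran from -6.14 for Lyz1 to 2.64 for Epx, so their median does not describe the set.

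**Figure D1:**
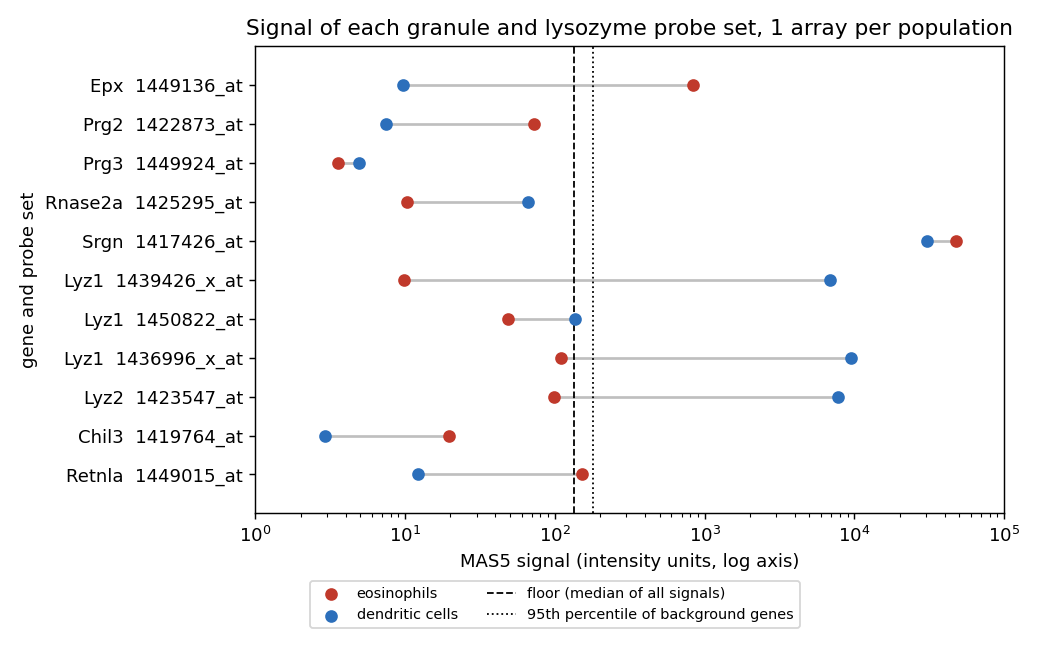
MAS5 signal (log axis) of the 11 probe sets, 1 array per population, with eosinophils in red and dendritic cells in blue. The dashed line is the floor of 134.7 units and the dotted line the 95th percentile of background genes, 180.6 units. Only Epx, Srgn and Retnla lie above the floor in eosinophils.

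Epx, the eosinophil peroxidase, which makes hypohalous acids from hydrogen peroxide and halides, was the toxic granule protein whose mRNA was seen. Its single probe set gave 837.1 units in eosinophils against 9.61 units in dendritic cells, at least 6.21-fold stronger in eosinophils. The eosinophil array was well above background and the dendritic cell array far under the floor. Of the 7994 measured genes, 201 had a larger eosinophil excess after the floor. In such bulk samples, fewer expressing cells and less RNA per cell cannot be told apart, for this gene and those that follow.

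The other toxic granule proteins were not seen above the floor. Prg2, the major basic protein that forms the crystalline core of the granule, gave 73.0 units in eosinophils against 7.40 units in dendritic cells. Prg3, its close relative, gave 3.54 units in eosinophils against 4.95 units in dendritic cells. Rnase2a, a member of the eosinophil-associated ribonuclease family, gave 10.3 units in eosinophils against 65.9 units in dendritic cells. Each of these genes was read by 1 probe set, so 3 of the 4 toxic granule proteins were not detectable at this brightness on either array. That is no statement that the transcripts were absent.

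Related ribonucleases and peroxidases added little. Of 6 eosinophil-associated ribonuclease and angiogenin genes on the array, 2 were measured, and 1 was at least 4-fold stronger in eosinophils. It was Rnase4, a broadly expressed secreted ribonuclease, at 605.8 units in eosinophils against 22.9 units in dendritic cells, at least 4.50-fold. It no longer reached 4-fold after the arrays were centred on spike controls, or with the floor at the 75th percentile or at the 95th percentile of background genes. Rnase2b, another family member, came close to the floor with 130.3 units in eosinophils against 22.2 units in dendritic cells. Ang, an angiogenin, gave 164.1 units in eosinophils, within the background range, and 11.2 units in dendritic cells. Among haem peroxidases, Mpo, the neutrophil myeloperoxidase, was under the floor at 35.1 units in eosinophils against 9.90 units in dendritic cells. Ptgs2, the inducible cyclooxygenase, gave 725.6 units in eosinophils against 699.9 units in dendritic cells, 1.04-fold apart.

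Srgn, serglycin, the core protein of the proteoglycan that holds basic proteins in granules of many blood cells, was bright on both arrays. It gave 47367 units in eosinophils against 30476 units in dendritic cells, 1.55-fold stronger in eosinophils (0.64 on the log2 scale). That difference is smaller than the usual disagreement between probe sets of 1 gene, and its sign turned to -0.40 when the arrays were centred on spike controls. Of all measured genes, 69.9% had a lower log2 difference.

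For the enzymes that build the sugar chains of serglycin and other proteoglycans, 9 of 16 on the array were measured, and none was at least 4-fold apart in either direction by the probe set that stands for it. Their median log2 difference was 0.63, against 0.16 over all measured genes, and became -0.27 after centring on spike controls, where 1 enzyme was at least 4-fold stronger in dendritic cells. Csgalnact2, which starts chondroitin chains, gave 916.0 units in eosinophils against 318.1 units in dendritic cells, 2.88-fold. B4galt7, which adds the first galactose of the linker, gave 2062 units in eosinophils against 982.2 units in dendritic cells, 2.10-fold. Chst15, which makes the highly sulfated chondroitin sulfate E, was 2.02-fold stronger in eosinophils, at 871.0 units against 431.8 units in dendritic cells. Its second probe set did pass 4-fold, with 1169 units in eosinophils against 216.5 units in dendritic cells (2.43 on the log2 scale). Ext1, a heparan sulfate polymerase, went the other way, with 47.0 units in eosinophils against 401.9 units in dendritic cells, at least 2.98-fold stronger in dendritic cells.

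Genes of granule sorting and secretion were split. Of 14 on the array, 11 were measured, 1 was at least 4-fold stronger in eosinophils and 1 in dendritic cells, with a median log2 difference of 0.76 that became -0.27 after centring on spike controls. Lyst, the regulator of lysosome-related organelle size that is lost in Chediak-Higashi syndrome, gave 859.2 units in eosinophils against 201.2 units in dendritic cells, 4.27-fold, a call lost under every other scaling but that on housekeeping genes. Its other probe sets did not show this, 1 being under the floor on both arrays and 1 differing by 0.04 on the log2 scale. Stx17, a SNARE of autophagosome fusion, gave 508.1 units in eosinophils against 123.3 units in dendritic cells, at least 3.77-fold, and reached 4-fold after centring on housekeeping genes. Snap23, a membrane fusion SNARE, gave 1485 units in eosinophils against 538.1 units in dendritic cells, 2.76-fold. Log2 differences of its other probe sets were 1.69 and 0.25. Pi4k2a, a phosphatidylinositol kinase of endosomes, gave 153.5 units in eosinophils against 2313 units in dendritic cells, 15.1-fold stronger in dendritic cells. A second Pi4k2a probe set pointed the same way at -1.04 on the log2 scale.

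**Figure D2:**
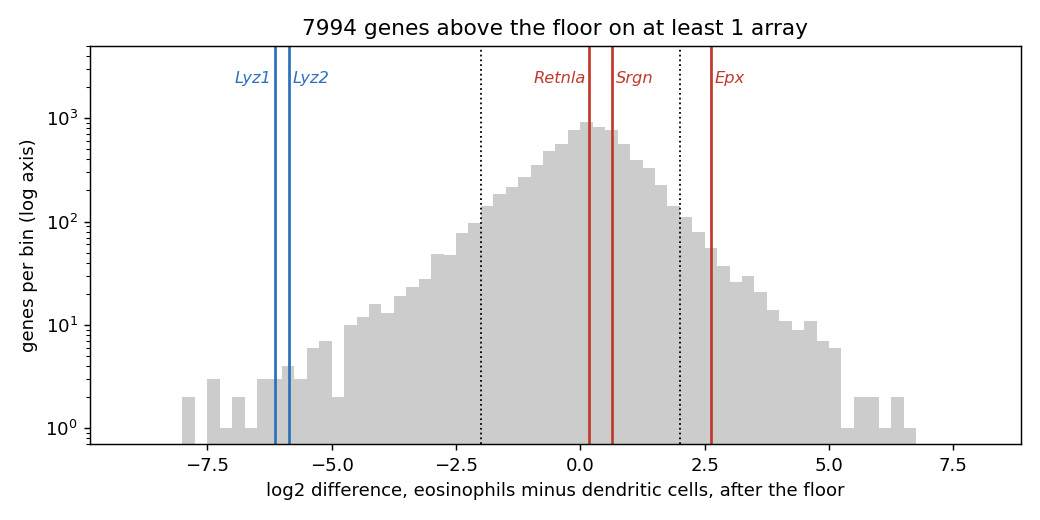
Histogram of the log2 difference (eosinophils minus dendritic cells, after the floor) of 7994 genes, number of genes on a log axis, with the 5 measured genes as lines, red where stronger in eosinophils and blue where stronger in dendritic cells. Dotted lines mark 4-fold. Lyz1 and Lyz2 lie in the far left tail, with 13 and 18 genes beyond them.

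Lyz2, the myeloid lysozyme, was bright in dendritic cells only. Its single probe set gave 99.2 units in eosinophils against 7813 units in dendritic cells, at least 58.0-fold stronger in dendritic cells (-5.86 on the log2 scale). The eosinophil signal was under the floor. Of the 7994 measured genes, 18 had a larger dendritic cell excess after the floor.

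The 3 probe sets of Lyz1 disagreed. The set 1436996_x_at gave 109.5 units in eosinophils against 9472 units in dendritic cells, at least 70.3-fold stronger in dendritic cells, and 1439426_x_at gave 9.82 units in eosinophils against 6849 units in dendritic cells, at least 50.8-fold. The set 1450822_at gave 48.7 units in eosinophils against 137.1 units in dendritic cells, at the floor and within the background range, with a log2 difference of -0.02. The first pair carries the suffix _x_at, which the manufacturer gives to probe sets with probes that can also match other transcripts. The set without the suffix is the one that the annotation pairs with the RefSeq transcript of Lyz1. Whether the suffixed sets recorded Lyz1 or the neighbouring Lyz2 was not tested, and probe sequences were not used here. The Lyz1 count at 4-fold therefore rests on sets that may not tell the pair apart, and without suffixed sets 1 gene, Lyz2, was at least 4-fold stronger in dendritic cells.

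Among other lysozyme-like genes, Lyzl4, a lysozyme relative, gave 144.5 units in eosinophils, within the background range, against 82.5 units in dendritic cells. Lyzl1 and Lalba were under the floor on both arrays. Markers of cells known for lysozyme were read beside these values. Of 5 Paneth cell markers on the array, 2 were measured and none was at least 4-fold apart, with summed signals of 756.2 units in eosinophils against 763.3 units in dendritic cells. Such sums add probe sets of unequal binding strength, signals under the floor included, and do not measure the amount of a cell type. Itln1, a secreted lectin, gave 669.8 units in eosinophils against 541.0 units in dendritic cells. Defa3, a Paneth cell defensin, gave 10.4 units in eosinophils against 140.3 units in dendritic cells. The latter was within the background range, with a log2 difference of -0.06 after the floor. Mmp7, the protease that activates defensins, was under the floor on both arrays.

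Macrophage and monocyte markers lay on both sides, with a median log2 difference of -0.37. Of 14 on the array, 8 were measured, and 1 was at least 4-fold stronger in dendritic cells. Their summed signals were 2690 units in eosinophils against 7363 units in dendritic cells. Cd14, a co-receptor for lipopolysaccharide, gave 100.01 units in eosinophils against 2641 units in dendritic cells, at least 19.6-fold stronger in dendritic cells. Cd68 gave 672.4 units in eosinophils against 2573 units in dendritic cells, and the complement chain C1qb 37.5 units in eosinophils against 363.3 units in dendritic cells. Mertk, a receptor for apoptotic cells, went the other way at 258.5 units in eosinophils against 59.1 units in dendritic cells, as did Cd163, a scavenger receptor, at 193.2 units in eosinophils against 41.2 units in dendritic cells. The chemokine receptor Ccr2 gave 155.1 units in eosinophils against 162.1 units in dendritic cells, both within the background range. C1qa, another complement chain, gave 14.7 units in eosinophils against 153.2 units in dendritic cells, within the background range. C1qc came close to the floor in eosinophils instead, at 130.3 units against 33.7 units in dendritic cells. Apoe, Marco, Vsig4, Cx3cr1 and Fcgr1 were also under the floor on both arrays. The part of other myeloid cells in the lysozyme signals was not tested.

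**Figure D3:**
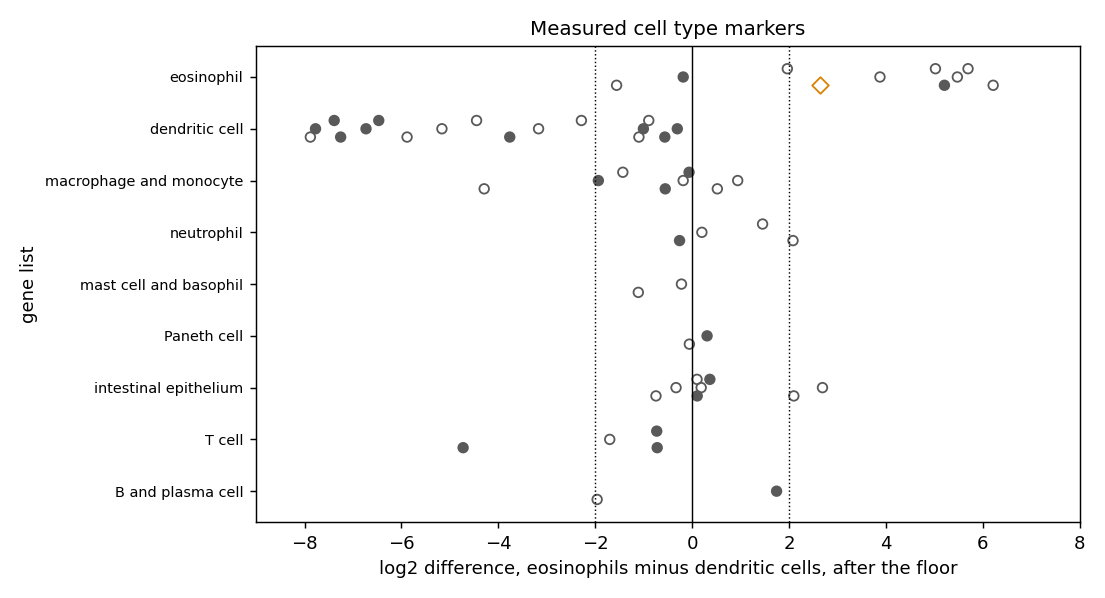
Log2 difference (eosinophils minus dendritic cells, after the floor) of each measured gene in 9 cell type marker lists. Filled points were above the floor on both arrays, open points are lower bounds, and the orange diamond is Epx; dotted lines mark 4-fold. The eosinophil and dendritic cell lists lie on opposite sides, and the other lists hold few measured genes.

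Granule genes of other cells were read beside Epx. Of 12 neutrophil markers, 4 were measured and 1, the chemokine receptor Cxcr2, was at least 4-fold stronger in eosinophils, at 570.4 units against 4.48 units in dendritic cells. That call was lost after centring on array medians or on spike controls, and with the floor at the 75th percentile or at the 95th percentile of background genes. Mmp8, the neutrophil collagenase, gave 369.1 units in eosinophils against 9.43 units in dendritic cells, at least 2.74-fold. S100a8 gave 147.3 units in eosinophils against 176.4 units in dendritic cells, both within the background range. Of the azurophil granule genes, Mpo, Ctsg and Prtn3 were under the floor on both arrays. Elane, the remaining measured marker, gave 154.8 units in eosinophils, above the floor but within the background range, against 7.18 units in dendritic cells. Summed neutrophil marker signals were 1854 units in eosinophils against 597.0 units in dendritic cells, and their part in the Epx signal was not tested. Of 12 mast cell and basophil markers, 2 were measured and none was 4-fold apart, with sums of 578.9 units in eosinophils against 1095 units in dendritic cells. Kit, the stem cell factor receptor, gave 110.2 units in eosinophils against 291.1 units in dendritic cells. Its second probe set was under the floor on both arrays, at 104.1 units in eosinophils against 66.6 units in dendritic cells. Tpsab1, a mast cell tryptase, gave 8.90 units in eosinophils against 157.0 units in dendritic cells, the latter within the background range.

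Epithelial, T cell and B cell markers complete this reading. Of 13 epithelial markers, 8 were measured and 2 were at least 4-fold stronger in eosinophils, with sums of 2693 units in eosinophils against 1320 units in dendritic cells. Krt18, a keratin of simple epithelia, gave 869.6 units in eosinophils against 60.7 units in dendritic cells, and Cdh17, the intestinal cadherin, 577.1 units in eosinophils against 46.5 units in dendritic cells. Krt18 alone reached 4-fold after centring on array medians or on spike controls or with the floor at the 95th percentile of background genes, and neither did with the floor at the 75th percentile. Fabp2, the intestinal fatty acid binding protein, went the other way with 79.1 units in eosinophils against 226.1 units in dendritic cells. Tff3, a goblet cell peptide, gave 21.0 units in eosinophils against 169.7 units in dendritic cells. The latter was within the background range, with a log2 difference of -0.33 after the floor. Epcam was above the background range on both arrays, at 433.3 units in eosinophils against 336.4 units in dendritic cells. Krt19 and Phgr1 passed the floor in eosinophils only and Lgals4 on both arrays, all within the background range. Krt8, Krt20, Cdh1, Vil1 and Fabp1 were under the floor on both arrays. Of 8 T cell markers, 4 were measured and 1, Cd8a, was at least 4-fold stronger in dendritic cells, at 140.9 units in eosinophils against 3732 units in dendritic cells. The T cell sums were 788.5 units in eosinophils against 5316 units in dendritic cells. Cd8a is also carried by a subset of mouse dendritic cells, and its second probe set was under the floor on both arrays. Cd3e, a T cell receptor chain, gave 335.6 units in eosinophils against 557.0 units in dendritic cells, and Thy1 gave 9.57 units in eosinophils against 438.2 units in dendritic cells. Il7r gave 213.4 units in eosinophils against 351.9 units in dendritic cells. Cd3d, Cd3g, Cd4 and Cd8b1 were under the floor on both arrays. Of 7 B and plasma cell markers, 2 were measured and none was 4-fold apart, with sums of 3164 units in eosinophils against 1734 units in dendritic cells. The plasma cell marker Sdc1 gave 74.2 units in eosinophils against 524.7 units in dendritic cells, and passed 4-fold after centring on array medians or spike controls and after quantile normalization. Of its other 3 probe sets, 1 was measured, at -0.07 on the log2 scale. The other measured marker, the secretory factor Xbp1, went the other way, with 2787 units in eosinophils against 832.8 units in dendritic cells, and passed 4-fold after centring on housekeeping genes.

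Chil3, the chitinase-like lectin Ym1 that forms crystals in inflamed mouse lungs, was not detectable. It gave 19.6 units in eosinophils against 2.92 units in dendritic cells, both values under the floor. A set annotated to both Chil3 and its relative Chil4 gave 38.7 units in eosinophils against 4.68 units in dendritic cells, and was left out of the 11. Of 7 chitinase-like genes on the array, 2 were measured and none was 4-fold apart. They were Ovgp1, an oviduct glycoprotein, at 217.8 units in eosinophils against 16.3 units in dendritic cells, and the lysosomal chitobiase Ctbs at 150.3 units in eosinophils against 140.4 units in dendritic cells. Both Ctbs signals were within the background range.

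Retnla, the resistin-like molecule alpha that macrophages make under IL-4, lay at the edge of detection in eosinophils. It gave 151.9 units in eosinophils against 12.1 units in dendritic cells, at least 1.13-fold. The eosinophil signal was above the floor but within the background range, and the gene dropped under the floor on both arrays after centring on spike controls. Its relatives were at or under the floor. Retnlb, the resistin-like molecule of goblet cells, gave 78.9 units in eosinophils against 5.64 units in dendritic cells, and Retn, resistin, gave 10.97 units in eosinophils against 137.1 units in dendritic cells.

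Genes that accompany Chil3 and Retnla in alternatively activated macrophages were mostly stronger in dendritic cells. Of 16 on the array, 9 were measured, 1 was at least 4-fold stronger in eosinophils and 5 in dendritic cells. Their median log2 difference was -2.27, against 0.16 over all measured genes, but -0.95 without _x_at and _s_at probe sets, -1.29 with the mean of all probe sets, -1.49 with the floor at the 75th percentile and -0.87 with it at the 25th. The dendritic cell count was 4 or 5 under each of these. Ccl17, a chemokine for type 2 T cells, gave 82.5 units in eosinophils against 18045 units in dendritic cells, at least 134-fold stronger in dendritic cells. Clec7a, the beta-glucan receptor Dectin-1, gave 76.0 units in eosinophils against 5176 units in dendritic cells, at least 38.4-fold. Ccl22, a partner of Ccl17 at the same receptor, gave 69.4 units in eosinophils against 4781 units in dendritic cells. These chemokines are also known products of dendritic cells. Egr2, a transcription factor, went the other way at 2636 units in eosinophils against 287.0 units in dendritic cells, 9.18-fold, and another probe set gave 3.53 on the log2 scale. Arg1, Mrc1 and Ccl24 were under the floor on both arrays.

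**Figure D4:**
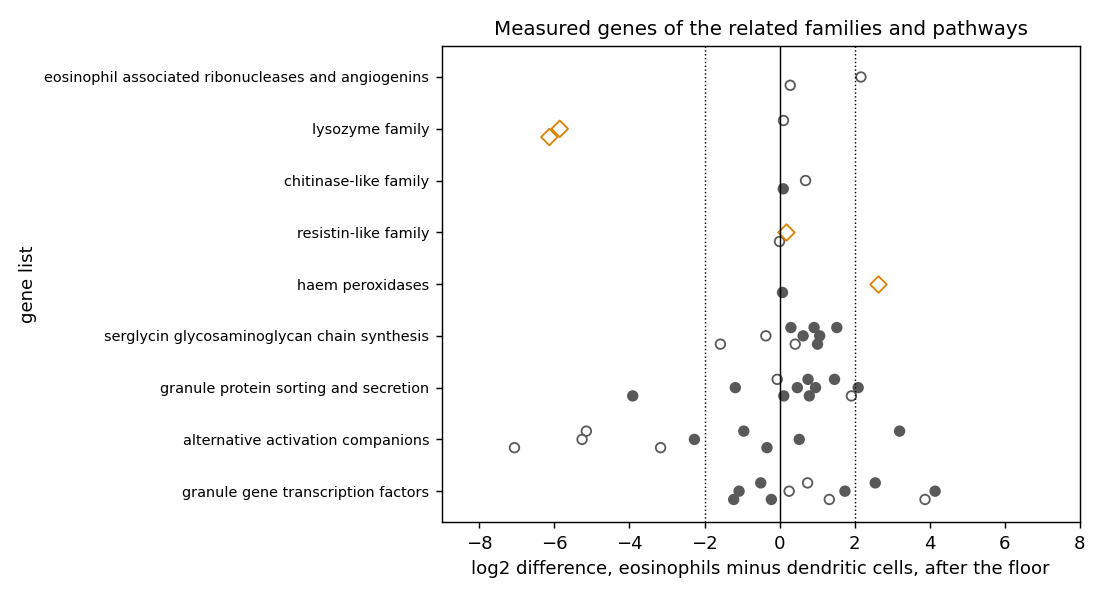
Log2 difference (eosinophils minus dendritic cells, after the floor) of each measured gene in 9 lists of families and pathways around the granule and lysozyme genes. Orange diamonds are Lyz1, Lyz2, Retnla and Epx, filled points were above the floor on both arrays, open points are lower bounds and dotted lines mark 4-fold. Lyz1 and Lyz2 stand far left of Lyzl4, the other measured lysozyme gene.

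A list of transcription factors known to act in granulocyte maturation was read because several are needed for granule genes. It also held Trib1, a pseudokinase and not a transcription factor. Of its 12 genes on the array, 11 were measured. Of these, 3 were at least 4-fold stronger in eosinophils and 0 in dendritic cells, with a median log2 difference of 0.75. After centring on spike controls the counts were 2 in eosinophils and 2 in dendritic cells, and with the mean of all probe sets of a gene 1 and 1, with a median of 0.17. Quantile normalization and centring on housekeeping genes each gave 4 and 0, and quantile normalization a median of 1.21. Gata1, which the eosinophil lineage requires, gave 1979 units in eosinophils against 60.8 units in dendritic cells, at least 14.7-fold. Cebpb, a leucine zipper factor of myeloid cells, gave 2584 units in eosinophils against 146.0 units in dendritic cells, 17.7-fold, while its second probe set was under the floor on both arrays. The probe sets of Runx1 disagreed, with 2.55 for the one that stands for the gene and -2.76 for another on the log2 scale. Xbp1, a secretory pathway factor that eosinophil maturation needs, gave 2787 units in eosinophils against 832.8 units in dendritic cells, 3.35-fold. Log2 differences of its other probe sets ranged from 0.47 to 2.05. Further genes of the list leaned toward dendritic cells. Cebpa rose from 163.1 units in eosinophils, within the background range, to 380.5 units in dendritic cells (-1.22 on the log2 scale). Trib1 rose from 467.6 units in eosinophils to 987.9 units in dendritic cells (-1.08). Id2 and Spi1, at -0.50 and -0.22, differed by less than the spread between probe sets. With a 2-fold threshold, 5 of the 11 measured list genes passed toward eosinophils and 2 toward dendritic cells. Over all 7994 measured genes, 19.0% and 15.5% passed at that threshold.

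The list genes nearest to each gene in log2 difference were taken from 100 measured genes of the lists, over the 2 populations. Nearest to Epx were Krt18, Runx1 and Rnase4, within 0.47 on the log2 scale. Nearest to Srgn were Chst12, Ovgp1 and Gata2, within 0.11. Nearest to Lyz2 were Itgae, Clec7a and Dpp4, within 0.61. Most of these differences are lower bounds set by the floor, so the nearness describes floored values and not similar true ratios.

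**Figure D5:**
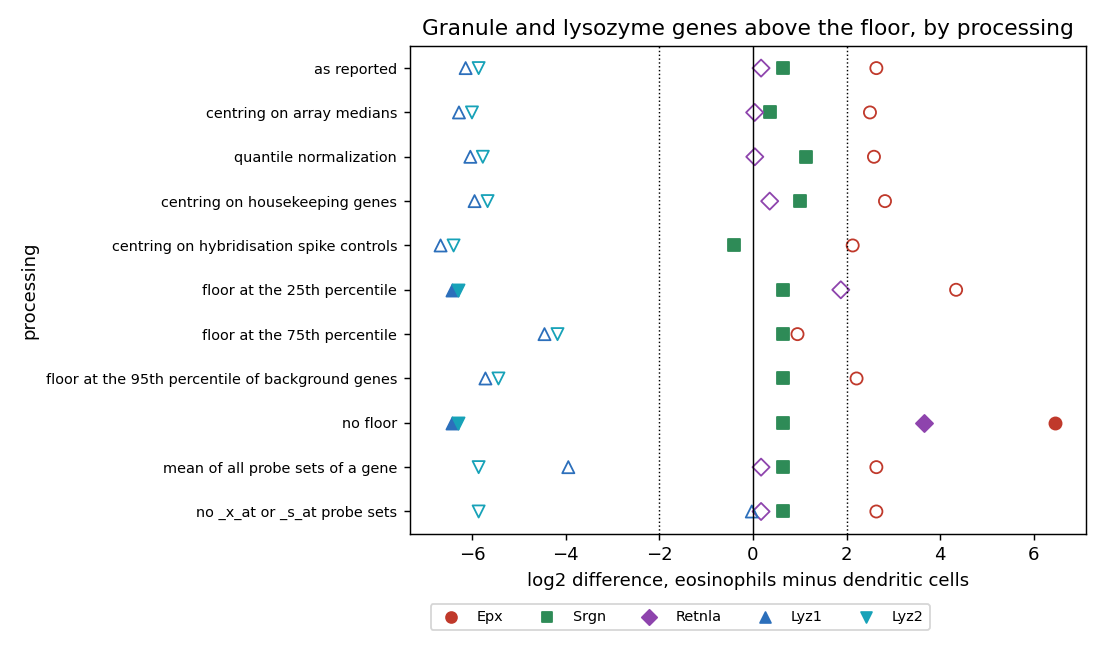
Log2 difference (eosinophils minus dendritic cells) for Epx, Srgn, Retnla, Lyz1 and Lyz2, one row per way of processing. Filled symbols were above the floor on both arrays, open symbols are lower bounds and dotted lines mark 4-fold. Lyz2 stays at or beyond -4.17 in every row, Epx moves between 0.95 and 6.45, and Lyz1 moves to -0.02 without _x_at and _s_at probe sets.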

How the data were processed

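The deposited table holds linear intensity values, 1 per probe set and array, which the authors computed in MAS5 (version 5.0), per the submitters' processing notes. Its settings were not stated in the sources used here. The mean signal, with 2% trimmed at either end, was 499.9 units on each array, so both share a global scale. Median signals were 148.1 units in eosinophils against 122.0 units in dendritic cells. The ratio of 3' to 5' control signals was 6.38 in eosinophils and 9.00 in dendritic cells for Actb, and 9.81 in eosinophils and 6.58 in dendritic cells for Gapdh.

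Of the probe sets, 20393 had 1 gene, 691 several and 1606 were not listed, in an annotation whose symbols were updated with RefSeq GRCm38.p6. Each gene was read from its probe set of highest mean log2 signal. With 1 array per population, the number of arrays limits precision and no p-value was computed. Genes named beyond the 9 were, for each list, the measured genes with the largest log2 difference (up to 4, or 3 for cell type markers), of which the eosinophil and dendritic cell lists give 1 each. The 3 list genes nearest in log2 difference were also named. Ltc4s, Mpo, Rnase2b, Retnlb, Mertk, Cd163, Ccr2, Tff3 and the list genes given only as under the floor were chosen after their values were seen. So were Elane, Epcam, Krt19, Phgr1, Lgals4, Il7r, C1qa, C1qc, Cebpa, Trib1, Id2 and Spi1. The genes and lists were chosen with earlier results of these data known. The 4-fold call was tried on simulated bright genes with less noise than the spread between probe sets. That simulation does not cover genes near or under the floor. Python 3.11.15, pandas 2.3.3 and Biopython 1.88 were used.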

Additional observations from a re-analysis of the deposited data

How the results depend on the processing

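Of the 9 genes, 1 was at least 4-fold stronger in eosinophils and 2 in dendritic cells, 3 in all. These counts were the same under centring on array medians, on housekeeping genes or on spike controls, quantile normalization, a floor at the 25th percentile or at the 95th percentile of background genes, the mean of all probe sets of a gene, and a 2-fold threshold. With a floor at the 75th percentile, or a 10-fold threshold, the eosinophil count was 0. Without _x_at and _s_at probe sets the dendritic cell count was 1. Without a floor, 7 genes passed, 4 of them stronger in eosinophils, because dim signals then enter ratios. Of all 12393 genes, 15.3% were then at least 4-fold stronger in eosinophils and 11.8% in dendritic cells. At the 2-fold threshold these shares were 19.0% and 15.5% of the 7994 measured genes, against 5.35% each at 4-fold. No single gene's 4-fold difference changed sign. Spike controls were 2.06-fold stronger in eosinophils, and centring on them moved the median of all genes from 0.16 to -0.63 on the log2 scale, with 1.98% of genes at least 4-fold stronger in eosinophils and 14.2% in dendritic cells. Centring on array medians moved that median to -0.06, quantile normalization to 0.05 and housekeeping genes to 0.43. No paired analysis was possible because each population has 1 array. Brightness limits what can be said of Prg2, Prg3, Rnase2a and Chil3.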
